A study of Macaca mulatta with 304 samples.

Results

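Monocyte identity genes are the transcripts by which circulating monocytes are usually recognised, and 8 of them were followed here in the blood of rhesus macaques (Macaca mulatta) whose upper thorax was irradiated. The members were CD14, VCAN, LYZ, FCN1, CSF1R, CD36, TCF7L2 and CDKN1C, taken as the rows of the deposited count table that carry these symbols. Of the 21070 genes in the table, 7 members matched by symbol and 1 by its gene number, since FCN1 is listed there as LOC712405, the gene number that RefSeq names FCN1. All 8 reached 3 or more counts in 80% or more of the samples and were tested.

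Whole blood RNA was sequenced from 304 samples of 28 adult animals of both sexes, aged 3 to 5 years. The lower dose (LD, 9.8 Gy) group held 12 animals, 6 females and 6 males, with 12 control samples and 151 irradiated samples. The higher dose (HD, 10.7 Gy) group held 16 animals, 8 females and 8 males, with 12 control samples and 129 irradiated samples. Control samples were drawn 2 days before irradiation (Day -2) from 24 of these animals, so each of them served as its own control, and no group of unirradiated animals was followed alongside. All animals were given an antiemetic and anesthesia before irradiation. All also received tramadol or buprenorphine for pain, begun after Day 3 and ended between Day 21 and Day 30. The control samples preceded these treatments, whose part in the changes was not tested. Animals with rapid breathing were given the glucocorticoid dexamethasone, and the labels do not say which animals received it. Irradiated samples were grouped into early (Day 3 to 21), medium (Day 30 to 90) and late (Day 120 to 270) windows. The late window held only animals still alive, 11 given 9.8 Gy and 3 given 10.7 Gy, of which 11 and 1 had a control sample.

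Monocytes leave the bone marrow as classical cells, which carry CD14 and are rich in proteins that recognise and destroy microbes, and a share of them turns into nonclassical cells, which patrol the vessel wall. CD14, VCAN, LYZ, FCN1 and CD36 are best known from classical cells, CSF1R is carried by both kinds, and TCF7L2 and CDKN1C are best known from nonclassical cells. In a bulk blood sample, fewer cells of a type and less RNA per cell cannot be told apart.

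Samples held between 2840219 and 23638161 counts on genes (median 8227563), with medians of 11697185.5 in control samples, 11789708.5 in early, 6905391 in scheduled medium and 6904216 in scheduled late samples. Levels are given as CPM, the counts per 1000000 counts of a sample after upper quartile scaling. A gene was called higher or lower when its fold change within animals reached 1.5 and its adjusted p, from the quasi-likelihood test of edgeR with Benjamini-Hochberg correction over 13751 genes, was 0.05 or less. The sample labels also carry a library number whose meaning they do not state. It falls into a low range, a high range, or 0. It lay in the low range in 20 of 24 control and 100 early samples (24 other early samples had 0 and 8 the high range), but in 0 medium or late samples. On the scheduled days of these windows it was 0 (74 and 40 samples) or in the high range (19 and 7 samples). All 24 animals compared on Day 3, 6, 9 and 15 had both samples in 1 of these classes, against 16 animals on Day 21, 4 on Day 30, 4 on Day 40, 2 of 21 on Day 60, 1 of 15 on Day 90 and 0 from Day 120 on. No fit within a class was made from Day 60 on. For the late days and the late window, irradiation and library number cannot be told apart in comparisons with control.

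The members lie on 6 chromosomes of Mmul_10. CD14 (chr6:138012823-138014253), CSF1R (chr6:147566255-147600778), CD36 (chr3:125511890-125589378) and CDKN1C (chr14:2946560-2949199) are on the minus strand. VCAN (chr6:80264135-80375099), LYZ (chr11:68891249-68896853), FCN1 (chr15:3316591-3325013) and TCF7L2 (chr9:113474926-113693230) are on the plus strand. CD36, TCF7L2 and VCAN overlap another annotated gene, and whether the counting used the strand of reads is not stated, so part of their counts may belong to the neighbour. The 250 bases before the annotated start of each gene were read from the RefSeq annotation of this build, and those of CD14, from the classical members, and TCF7L2, from the nonclassical ones, are printed because they differ in composition. They are written 5′ to 3′ on the strand of the gene, and capitals mark CG dinucleotides.

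CD14 (chr6:138014254-138014503): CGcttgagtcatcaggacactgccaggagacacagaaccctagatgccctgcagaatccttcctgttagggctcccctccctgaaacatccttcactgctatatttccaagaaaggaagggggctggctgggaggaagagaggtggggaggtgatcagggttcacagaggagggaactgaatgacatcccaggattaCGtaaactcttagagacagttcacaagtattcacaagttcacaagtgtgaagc

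TCF7L2 (chr9:113474676-113474925): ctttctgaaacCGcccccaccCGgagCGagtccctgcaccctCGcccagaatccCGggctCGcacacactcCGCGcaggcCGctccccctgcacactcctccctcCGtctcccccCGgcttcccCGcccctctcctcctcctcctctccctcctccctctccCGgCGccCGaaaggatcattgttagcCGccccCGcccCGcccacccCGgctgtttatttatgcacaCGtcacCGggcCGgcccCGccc

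The stretch before TCF7L2 held 23 CG dinucleotides, against a median of 12 over the 20742 genes for which it could be read. The stretch before CD14 held 2. GC content was 71.2% before TCF7L2 and 50.8% before CD14 (median of all genes 57.2%). The letters GAGGAA, a core bound by the myeloid factor PU.1, occurred on either strand in the stretch before CD14 and in 21.8% of all stretches. The letters TTGCNNAA, a core bound by C/EBP factors, occurred on neither strand before CD14 or TCF7L2, and in 8.05% of all. These matches describe the windows only.

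Before irradiation the members spanned a wide range of abundance. Per kilobase of exon, LYZ, which encodes the antibacterial enzyme lysozyme, was the most abundant of the 8, with a median of 356 CPM per kb in the 24 control samples (90.1 to 810). CD14, the lipopolysaccharide co-receptor, followed at 168 (77.3 to 443), and FCN1, which encodes the sugar-binding recognition protein M-ficolin, at 90.6 (29.6 to 157). VCAN, the matrix proteoglycan versican, stood at 60.1 (18.1 to 249) and CSF1R, the receptor for CSF1 and IL34, at 48.8 (23 to 85.3). The nonclassical genes were lower, at 9.6 for CDKN1C (1.66 to 24.6), an inhibitor of cyclin-dependent kinases, and 4.0 for TCF7L2 (1.24 to 8.89), a transcription factor of the Wnt pathway. CD36, a scavenger receptor for lipids, was the lowest at 0.461 (0.035 to 1.63). Each gene exceeded the next in this order in 20, 24, 17, 14, 24, 24 and 24 of 24 control samples, so FCN1 and VCAN, and VCAN and CSF1R, were not separated beyond the spread between animals. CD36 rested on few reads (median 23.5 counts, 0 in 4 of 304 samples). In control samples 0 of 8 members differed between females and males, where 9 of 13751 genes were called (0.0654%), or between animals later given 10.7 and 9.8 Gy, where 0 genes were called (1087 genes and 1 member, TCF7L2, at an unadjusted p under 0.05).

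On Day 3, the earliest day sampled, 7 of 8 members were higher than in the same animals' control samples and 0 were lower. Of all genes tested, 11.5% were called on this day, 6.89% as higher. The nonclassical pair and CSF1R led. TCF7L2 ranged from 5.81 to 41.6 CPM (median 18.7) in the 24 control samples and from 20.7 to 131.3 CPM (median 52.8) on Day 3, and it was higher in 24 of 24 animals. The groups overlapped in level, and the change within animals was 2.87-fold (log2 1.52 ± 0.07 SE, adjusted p = 1.61e-16). CSF1R ranged from 93.8 to 348 CPM (median 198.8) before and from 245 to 885 CPM (median 443) after, higher in 24 of 24 animals, a 2.31-fold rise (log2 1.2 ± 0.08, adjusted p = 1.05e-13). CDKN1C ranged from 3.36 to 49.6 CPM (median 19.4) before and from 7.18 to 155 CPM (median 49.8) after, higher in 23 of 24 animals and 2.27-fold up (log2 1.18 ± 0.10, adjusted p = 1.21e-10).

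The classical genes moved less evenly on Day 3. FCN1 ranged from 39.3 to 208 CPM (median 120) in control samples and from 78.2 to 472 CPM (median 234.01) on Day 3, a 2.04-fold rise seen in 22 of 24 animals (log2 1.03 ± 0.09, adjusted p = 2.8e-10). LYZ rose 2.01-fold in 20 of 24 animals, from 54.2 to 488 CPM (median 214.02) to 139 to 1347 CPM (median 372; log2 1.01 ± 0.17, adjusted p = 1.64e-05). CD36 rose 1.98-fold, from a median of 1.69 CPM (0.128 to 5.97) to 3.09 CPM (0.966 to 13.5), in 22 of 24 animals (adjusted p = 6.7e-06). CD14 had the smallest change that was called, 1.56-fold in 21 of 24 animals, with 103.9 to 595 CPM (median 225.3) before and 191 to 569 CPM (median 331) after (log2 0.64 ± 0.09, adjusted p = 1.35e-06). VCAN was at 228 to 3149.5 CPM (median 759) before and 394 to 2042 CPM (median 887) after, higher in 13 of 24 animals, and did not pass the test (log2 0.23 ± 0.13, adjusted p = 0.148). All groups overlapped in level.

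Other genes of the same cells were counted on Day 3 from lists written for this work. Of 16 tested genes of nonclassical monocytes 10 were higher and 1 was lower, led by the complement genes C1QC (log2 3.26 ± 0.10), C1QA (3.15 ± 0.14) and C1QB (3.06 ± 0.12). Among 11 regulators of monocyte identity 5 were higher and 0 lower, among them KLF4, which favours monocyte fate (3.88-fold, SE 0.08 on the log2 scale), and CEBPA (log2 0.83 ± 0.11). Of 17 other classical genes 5 were higher and 0 lower, and of 7 ligands and partners of CSF1R 0 passed in either direction. The median log2 change was 0.69 for the nonclassical list, 0.52 for the regulators, 0.42 for the classical list and 1.02 for the 8 members, beside -0.06 over all genes. Markers of other blood cells moved on the same day. The 6 platelet markers were all higher, and the 7 erythroid markers likewise, with summed platelet levels of 881 to 4424 CPM in control samples against 1999.9 to 9527 CPM on Day 3, and summed erythroid levels of 1559 to 11209 against 3377.5 to 29586 CPM. The 6 B cell markers were all lower (summed level 285 to 1882 CPM in control samples and 162 to 965 CPM on Day 3), while of 10 neutrophil markers 2 were higher and 2 lower (366 to 2357 CPM and 667 to 2056 CPM). The part of these cells in the members' changes was not tested.

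**Figure D1:**
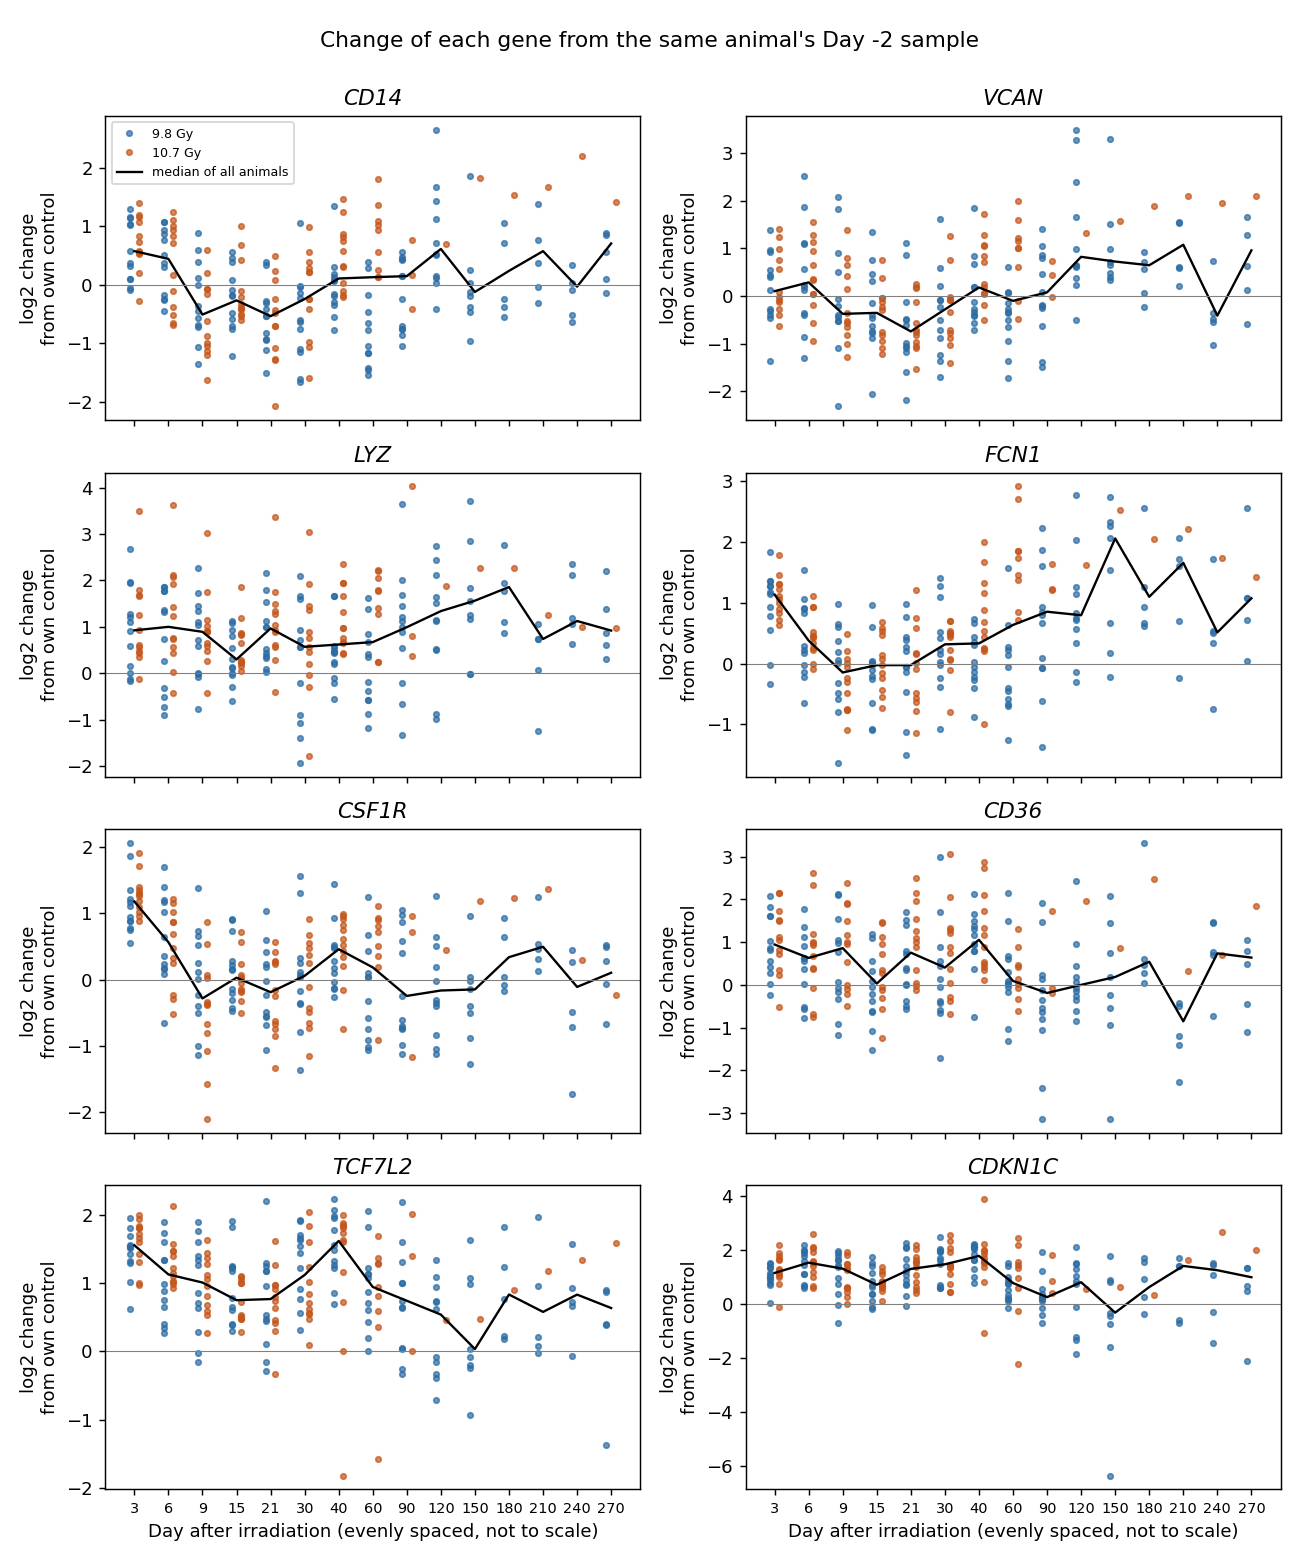
Log2 change of each member from the same animal's Day -2 sample (vertical axis) on each of 15 scheduled days (horizontal axis, evenly spaced and not to scale), with 1 point per animal coloured by dose and a line through the median. On Day 3 the points of TCF7L2 and CSF1R lay above 0 in 24 of 24 animals, and from Day 120 on each day held 1 animal given 10.7 Gy.

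Over the 15 scheduled days the 8 members gave 120 comparisons with control, of which 54 were called higher and 3 lower. Over the same days 6.35% of the comparisons of all genes were called higher and 6.29% lower. TCF7L2 was higher on 12 days, LYZ on 11, CDKN1C on 9, FCN1 on 7, CD36 on 6, VCAN on 4, CD14 on 3 and CSF1R on 2. Among all genes, 11.5% were called on Day 3 and likewise on Day 6. The share was 7.58% on Day 9 and 6.01% on Day 15, and 10.4% of genes passed on Day 21. Day 30 had 5.9%, Day 40 6.92%, Day 60 4.23% and Day 90 7.06%. The share rose to 31.8% for Day 120 and 31.5% for Day 150, with 18.7% for Day 180, 29.8% for Day 210 and 6.76% for Day 240. It was 0.00727% (1 gene) for Day 270, so the counts of different days are not on 1 footing.

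TCF7L2 was called higher on each of the 9 days from Day 3 to 90, and CDKN1C on the 8 days from Day 3 to 60. Both had a second high point on Day 40. TCF7L2 then ranged from 11.3 to 82 CPM (median 51.9), higher in 22 of 24 animals and 2.66-fold up (log2 1.41 ± 0.16, adjusted p = 2.48e-07), after a low of log2 0.75 ± 0.12 on Day 21. CDKN1C ranged from 16.6 to 208 CPM (median 63.7) on Day 40 and was higher in 23 of 24 animals, a 3.27-fold rise that was the largest of its 15 days (log2 1.71 ± 0.16, adjusted p = 2.23e-08). From Day 120 on the calls were less regular. Neither gene passed on Day 120 (log2 0.36 for TCF7L2 and 0.48 for CDKN1C) or on Day 150, when TCF7L2 was higher in 5 of 9 animals and CDKN1C in 4 of 9, with CDKN1C at 0 CPM in 1 sample (adjusted p = 0.316 and 0.827). On Day 180 both were called, TCF7L2 in 6 of 6 animals (log2 0.87 ± 0.20, adjusted p = 0.00806) and CDKN1C in 5 of 6 (0.74 ± 0.25, adjusted p = 0.0412). TCF7L2 was called again on Day 210 (0.74, adjusted p = 0.0283) and Day 240 (0.87, adjusted p = 0.045), in 5 of 6 animals each, and CDKN1C on no day after Day 180. The Day 180 call of CDKN1C was lost without B1004, B1502, B1503 or B2502 (0.54 to 0.82). That of TCF7L2 was lost on Day 210 without B1004, B1502 or B2502 (0.49 to 0.69) and on Day 240 without B1003, B1004, B1502, B1503 or B2502 (0.72 to 0.91). In 1 fit of all samples with the library number range as a term, TCF7L2 was not called on Day 90, 180 and 210 (0.56, 0.58 and 0.48) nor CDKN1C on Day 180 (0.65), while CDKN1C was called on Day 120 (0.69) and Day 240 (0.99). Within 1 library number class, in 4 animals all given 10.7 Gy, TCF7L2 was not called on Day 30 (0.46, adjusted p = 0.196) or Day 40 (1.15, adjusted p = 0.0538). CDKN1C was called there on both days (1.26 and 1.97). Without the animal block the calls of TCF7L2 on Day 180, 210 and 240 (0.84 to 0.95, adjusted p = 0.0571 to 0.0913) and of CDKN1C on Day 180 (0.68, adjusted p = 0.0869) were lost.

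The Day 3 height of CSF1R was brief. It was 1.47-fold above control on Day 6 (log2 0.56 ± 0.12, adjusted p = 5.06e-04, under the fold limit) and at log2 -0.22 ± 0.16 on Day 9, when 11 of 24 animals were above their control. It was called again only on Day 210, at 1.60-fold in 6 of 6 animals (adjusted p = 0.00894), with 177 to 581 CPM (median 383), and that call was lost without B1003 (log2 0.56) or B2502 (0.53), both under the fold limit.

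CD14 and VCAN dipped where the nonclassical pair stayed up. On Day 21 CD14 ranged from 58 to 337 CPM (median 155) and was higher than control in 5 of 24 animals, a fall by 0.59 on the log2 scale (SE 0.12, adjusted p = 1.79e-04). VCAN ranged from 260 to 769 CPM (median 554) on that day, again higher in 5 of 24 animals, and fell by 0.63 (SE 0.14, adjusted p = 6.47e-04). On the same day 10.4% of all genes were called, 2.73% as lower. In the 16 animals whose library numbers lay in 1 class, both genes were called again (CD14 -0.68, VCAN -0.76). In 1 fit with the library number range as a term neither reached the fold limit (CD14 -0.43, adjusted p = 0.0203, and VCAN -0.57, adjusted p = 0.00578), nor did CD14 without the animal block (-0.58). CD14 and VCAN next passed the test on Day 120, in the other direction. There VCAN was at 799 to 3361 CPM (median 1559), higher in 11 of 12 animals and 2.33-fold up (log2 1.22 ± 0.33, adjusted p = 0.00621), and CD14 at 168 to 1022 CPM (median 419), higher in 11 of 12 animals and 1.69-fold up (log2 0.75 ± 0.22, adjusted p = 0.0113).

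LYZ was the classical gene that stayed above control for most of the course, with log2 changes between 0.46 and 1.79. Its largest fitted change was that of Day 180, when it ranged from 195.4 to 1185 CPM (median 911). It then exceeded the control in 6 of 6 animals, 3.45-fold (log2 1.79 ± 0.22, adjusted p = 2.28e-04). FCN1 returned to its control level between Day 9 and 21, where log2 changes lay between -0.19 and -0.05, and was called higher on each day from Day 60 to 210. Its Day 60 call (log2 0.67) was lost with TMM, without the count filter and from the deposited log2 values (adjusted p = 0.0504 to 0.0551). On that day 5 of 12 animals given 9.8 Gy were higher (median -0.23), against 9 of 9 given 10.7 Gy (median 1.73). FCN1 had its largest fitted change on Day 150, at 145 to 490 CPM (median 386), higher in 8 of 9 animals and 3.00-fold up (log2 1.58 ± 0.30, adjusted p = 8.1e-04). Single days held different numbers of animals and were not tested against each other.

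CD36 had the least regular course. It was called higher on Day 3, 6, 9, 21, 40 and 180 and lower on Day 210, when it was at 0.527 to 1.99 CPM (median 1.28) and above control in 1 of 6 animals (log2 -1.09 ± 0.37, adjusted p = 0.0334). Leaving out B1003, B1503 or B1505 took that call away (adjusted p = 0.096, 0.0987 and 0.0935), as did TMM, RLE, DESeq2, the deposited log2 values and the fit without the animal block (0.0508 to 0.0657). The Day 180 call of CD36 was lost without B1004, B1502, B1503, B1505 or B2502 (log2 0.79 to 1.36) and with the deposited log2 values (adjusted p = 0.098). Without the animal block its calls on Day 6, 9, 21 and 180 were lost (adjusted p = 0.085 to 0.133). Days with 6 animals depended on single animals for other members too. The number of members called ranged from 3 to 6 on Day 180 (main 6), with 3 without B1004, B1503 or B2502. On Day 210 it ranged from 3 to 7 (main 6), with 3 without B2502. On Day 240 it ranged from 0 to 3 (main 2), with 0 without B1004 or B1503, 1 without B1003, B1502 or B2502 and 3 without B1505. On Day 270, where 0 members and 1 gene were called (4 members and 4060 genes at an unadjusted p under 0.05, and 4 members and 2344 genes called with DESeq2), FCN1 and LYZ were higher in 6 of 6 animals with an adjusted p of 0.0751 each, and both were called without B1003 (0.0247 and 0.0313).

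**Figure D2:**
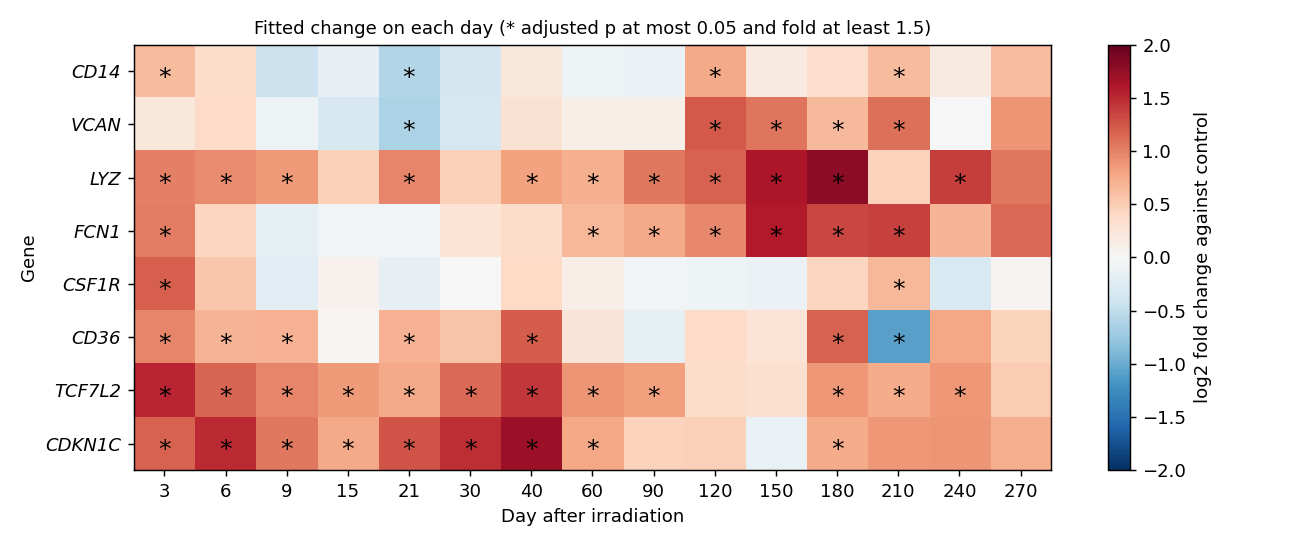
Fitted log2 fold change against control of the 8 members (rows) on 15 scheduled days (columns, evenly spaced), with red for higher, blue for lower and an asterisk where the test was passed. CD14 and VCAN were blue with an asterisk on Day 21, while TCF7L2 carried an asterisk on each day from Day 3 to 90.

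Summed over windows, TCF7L2, CDKN1C and LYZ were called higher in all 3, CD36 in the early and medium windows, FCN1 in the medium and late windows, CD14 and VCAN in the late window and CSF1R in none. The 3 windows share their control samples, so each window is given by its own values. In the early window 4 of 8 members were higher and 0 lower (7.53% of all genes called, 5.79% higher), in the medium window 5 and 0 (5.4% called, 4.28% higher) and in the late window 6 and 0 (34% called, 14.4% higher). The median log2 change of the members was 0.59 in the early, 0.68 in the medium and 0.68 in the late window, beside -0.02, -0.02 and -0.15 over all genes.

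TCF7L2 was at 15.3 to 98.2 CPM (median 39.05) in the early window, higher in 24 of 24 animals and 2.18-fold up (log2 1.12 ± 0.07, adjusted p = 1.46e-12). It kept 2.18-fold in the medium window (log2 1.13 ± 0.10, 23 of 24 animals, adjusted p = 3.72e-09). In the 4 animals with both samples in 1 library number class, all given 10.7 Gy, it was not called (0.66, adjusted p = 0.101). It was 1.52-fold up in the late window, at 9.98 to 42.8 CPM in 12 animals whose controls were at 5.81 to 26.4 CPM (log2 0.60 ± 0.15, 10 of 12 animals, adjusted p = 0.0037). CDKN1C was 2.32-fold up early (10.9 to 126.2 CPM, 24 of 24 animals, adjusted p = 4.51e-12), 2.48-fold medium (13 to 108.2 CPM, 24 of 24, adjusted p = 1.44e-09) and 1.58-fold late (6.91 to 61.4 CPM, 10 of 12, adjusted p = 0.0198). Both late values lay near the fold limit. TCF7L2 fell under it without B1001, B1004, B1005, B1502 or B2502 (log2 0.54 to 0.58), and CDKN1C without B1004, B1005 or B2502 (0.58 each).

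LYZ was higher in all windows, at 1.89-fold early (150 to 696 CPM, 23 of 24 animals, adjusted p = 4.38e-06), 1.92-fold medium (178 to 733 CPM, 21 of 24, adjusted p = 4.92e-05) and 2.54-fold late (194.4 to 1182 CPM, 11 of 12, adjusted p = 2.52e-04). CD36 was 1.60-fold up early and 1.64-fold medium, in 21 of 24 animals each (adjusted p = 3.6e-04 and 0.00127), and did not pass in the late window (log2 0.50 ± 0.24, adjusted p = 0.0935). Without the animal block its early and medium calls were lost (log2 0.61 and 0.63, adjusted p = 0.105 and 0.0995). From the deposited log2 values its medium change was under the fold limit (0.55).

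VCAN was at log2 0.01 ± 0.15 early and 0.18 ± 0.13 medium and passed in neither window. In the late window it ranged from 876 to 3389 CPM (median 1712) against 228 to 1355.5 CPM (median 737) in the controls of the same 12 animals, and all 12 animals were higher, 2.38-fold (log2 1.25 ± 0.30, adjusted p = 0.00242). FCN1 was 1.31-fold above control early, under the fold limit, 1.57-fold medium (adjusted p = 1.31e-04) and 2.68-fold late, at 140 to 567 CPM (median 283) against 67.3 to 169 CPM (median 98.2), in 12 of 12 animals (log2 1.42 ± 0.20, adjusted p = 6.06e-05). Its medium change was under the fold limit from the deposited log2 values (0.52). CD14 passed in the late window, at 204.3 to 808 CPM against 103.9 to 310 CPM, 1.63-fold up in 10 of 12 animals (log2 0.70 ± 0.21, adjusted p = 0.0107), and lost the call without B1506 (log2 0.56, adjusted p = 0.0188, under the fold limit). CSF1R was 1.41-fold above control early (log2 0.49 ± 0.08, adjusted p = 1.25e-05, under the fold limit), log2 0.22 ± 0.10 medium and 0.25 ± 0.15 late. No member had windows and controls that did not overlap in level.

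The late window also held higher levels of markers of other cells. Of 10 tested neutrophil markers 8 were higher and 0 lower (median log2 1.23), led by MMP8 (3.35), MMP9 (2.24) and CAMP (1.64), and their summed level ranged from 644 to 9020 CPM against 366 to 2357 CPM in control samples. ELANE, a defining marker of young neutrophils, had 0 counts in 27 of 304 samples and was not tested. Platelet markers were higher in 6 of 6 (summed level 1045 to 9537 CPM late) and erythroid markers in 4 of 7, while B cell markers were lower in 6 of 6 (41.5 to 684 CPM late) and T cell markers in 5 of 7 (640 to 1649.8 CPM in control samples and 193.97 to 1455 CPM late). In the early window 7 of 7 erythroid and 4 of 6 platelet markers were higher and 6 of 6 B cell markers lower, and in the medium window 6 of 7 erythroid markers were higher and 4 of 6 B cell markers lower. Of 8 glucocorticoid response genes 5 were higher, led by ZBTB16 (2.04), DUSP1 (1.48) and PER1 (1.35). The part of these changes in the members' values was not tested.

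Of the other classical monocyte genes 14 of 17 were higher and 0 lower in the late window (median log2 1.36), with S100A12 (2.63), CLEC4E (2.42) and S100A8 (2.04) the largest, and all of these are also abundant in neutrophils. The early and medium counts were 4 and 5 of 17. The nonclassical list was mixed late, with 2 of 16 higher and 4 lower (LST1 1.39, HES4 -1.25, MTSS1 -0.89). These counts lay near the shares of all genes in that window, 14.4% higher and 19.6% lower. In the early window 4 nonclassical genes were higher and 2 lower (C1QC 1.92, C1QB 1.87, C1QA 1.81). Regulators of monocyte identity were higher in 2 of 11 early (KLF4 1.37 among them), 4 of 11 medium and 8 of 11 late, where IRF8 was lower (-0.65) and CEBPB (1.94), SPI1 (1.44) and CEBPA (1.38) led. Among 6 partners of CD14 in sensing lipopolysaccharide 1 was higher early, 2 medium and 5 late, with IRAK3 (2.36), a brake on that pathway, TLR4 (1.45) and LY96 (1.31) the largest. Of 7 partners of CSF1R 3 were higher late, namely CSF2RB (1.29), TYROBP (1.08) and CBL (0.72), and 0 early or medium. CSF2RA was not analysed here, and the CSF1R ligand IL34 never exceeded 5 counts.

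**Figure D3:**
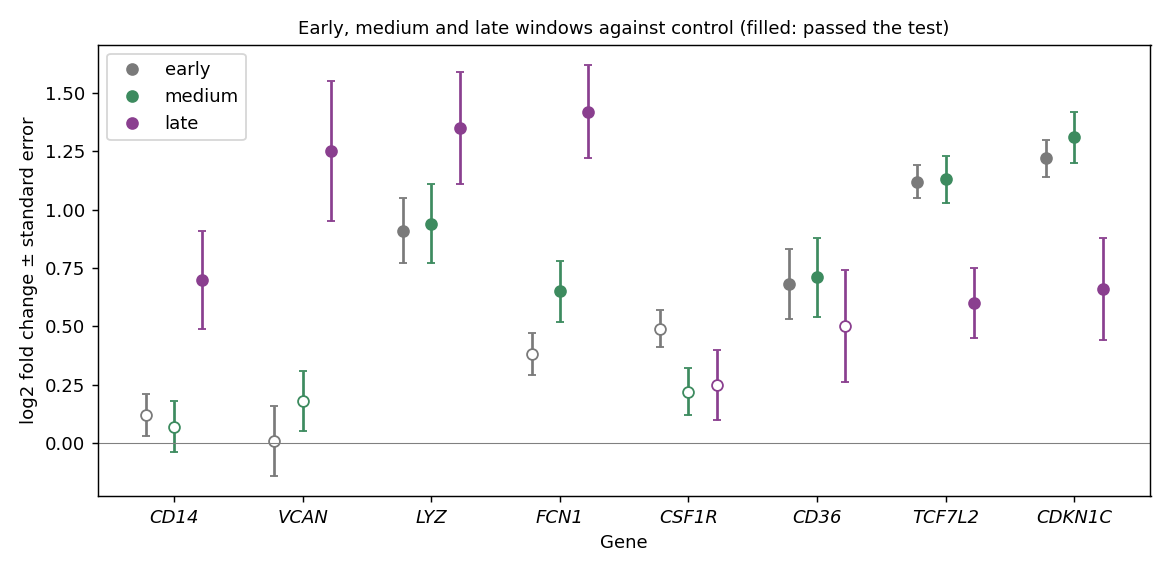
Fitted log2 fold change against control (vertical axis, bars ± 1 standard error) of the 8 members in the early, medium and late windows, with filled points where the test was passed. CD14, VCAN and FCN1 were highest in the late window, and TCF7L2 and CDKN1C in the early and medium windows.

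The difference between windows was tested directly in 14 animals with both a medium and a late sample. Against medium, 4 members were higher and 2 lower in the late window, where 24.6% of all genes were called (9.85% higher, 14.7% lower). VCAN was 2.41-fold higher late (log2 1.27 ± 0.17, 14 of 14 animals, adjusted p = 3.06e-05), FCN1 2.01-fold (log2 1.01 ± 0.14, 14 of 14, adjusted p = 3.52e-05), CD14 1.89-fold (log2 0.92 ± 0.15, 13 of 14, adjusted p = 1.55e-04) and LYZ 1.55-fold (log2 0.63 ± 0.20, 10 of 14, adjusted p = 0.0124). TCF7L2 fell by 0.61 on the log2 scale (SE 0.14, lower in 13 of 14 animals, adjusted p = 0.0014) and CDKN1C by 0.62 (SE 0.18, lower in 10 of 14, adjusted p = 0.00759). With TMM scaling in place of the upper quartile both falls were smaller (log2 -0.51 and -0.52) and under the fold limit. CSF1R (log2 0.05, 95% interval -0.29 to 0.40) and CD36 (-0.10, -0.44 to 0.24) did not pass. The same 6 members were called in samples of library number 0 alone, again in 14 animals (CD14 0.93, VCAN 1.28, LYZ 0.70, FCN1 1.09, TCF7L2 -0.60, CDKN1C -0.67 on the log2 scale), with 22.4% of all genes called. Of the neutrophil markers 8 of 10 were higher in the late than in the medium window, and of the glucocorticoid response genes 6 of 8. Their part in the members' differences was not tested.

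Against the early window, VCAN (log2 1.08 ± 0.14), FCN1 (1.07 ± 0.14) and CD14 (0.59 ± 0.14) were higher late in 14 animals (31.9% of all genes called), and TCF7L2 (-0.49 ± 0.14) and CDKN1C (-0.57 ± 0.19) were under the fold limit. Between the medium and the early window 0 of 8 members were called in 28 animals (3.72% of all genes called), although FCN1 and CSF1R had adjusted p-values of 0.00672 and 0.0145 at less than 1.5-fold. In the 8 animals with early and medium samples of library number 0, VCAN (0.59) and FCN1 (0.60) were higher in the medium window. In this comparison 5.0% of all genes were called. All 8 animals were given 10.7 Gy, and some of them had library number 0 in the early window only on Day 21.

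Dose was compared as the difference between the change at 10.7 Gy and the change at 9.8 Gy. In the early window 0 of 8 members and 0 of 13751 genes differed with edgeR (0 members and 761 genes at an unadjusted p under 0.05, and 0 genes with DESeq2). The intervals of the difference were widest for VCAN (log2 -0.56 to 0.63) and CD36 (-0.25 to 0.91) and narrowest for TCF7L2 (-0.21 to 0.36). Summed over Day 30 to 60, 2 of 8 members rose more at 10.7 Gy, CD14 (log2 0.80 ± 0.19, adjusted p = 0.00882) and FCN1 (0.84 ± 0.21, adjusted p = 0.0109), with 3.93% of all genes called and 3.37% as higher at 10.7 Gy. LYZ (0.86 ± 0.28, adjusted p = 0.0558) and VCAN (0.66 ± 0.23, adjusted p = 0.0801) did not pass, but LYZ did without B1005, B1501, B1503, B2001, B2007 or B2502 (0.92 to 0.98) and VCAN without B1506 or B2004 (0.80 and 0.74). When the irradiated samples were compared without their controls, FCN1 passed (0.82, adjusted p = 0.00549) and CD14 did not (0.35, adjusted p = 0.192).

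Day 30, 40 and 60 were then taken apart, a choice made after their values had been seen. On Day 30 0 genes differed between doses (404 at an unadjusted p under 0.05, 0 members among them) and on Day 40 5 genes, 0.0364% of those tested, with 0 members. On Day 60, in 12 animals given 9.8 Gy and 9 given 10.7 Gy, 23.1% of all genes differed, 10.5% as higher at 10.7 Gy, and 4 of 8 members were among these. On Day 40 the 10.7 Gy side had held 12 animals with a control, so its Day 60 values come from a remaining part of them. The 9.8 Gy side held 12 on both days. The sums over Day 30 to 60 therefore lacked Day 60 in some 10.7 Gy animals. What this loss contributed to the differences was not tested. In CD14 the log2 change from the own control lay between -1.55 and 0.39 at 9.8 Gy (median -0.91, 2 of 12 animals higher) and between 0.13 and 1.81 at 10.7 Gy (median 0.93, 9 of 9 higher), which overlapped slightly. The difference was 1.58 ± 0.26 on the log2 scale, 2.99-fold (adjusted p = 1.07e-04). In irradiated samples alone it was 0.99 (adjusted p = 0.0141), beside control medians of 243 CPM in animals later given 9.8 Gy and 195.45 CPM in those later given 10.7 Gy. CD14 fell at 9.8 Gy (log2 -0.77 ± 0.17, adjusted p = 0.00817), where 2.96% of all genes were called, and rose at 10.7 Gy (0.81 ± 0.19, adjusted p = 0.00191), where 22.5% were.

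FCN1 changed by -1.25 to 1.58 at 9.8 Gy (median -0.23, 5 of 12 higher) and by 0.71 to 2.91 at 10.7 Gy (median 1.73, 9 of 9 higher), a difference of 1.82 ± 0.30 (adjusted p = 1.08e-04). LYZ changed by -1.18 to 1.63 (median 0.08) and by 0.24 to 2.23 (median 1.77, 9 of 9 higher), a difference of 1.36 ± 0.34 (adjusted p = 0.00391). VCAN changed by -1.72 to 0.61 (median -0.35) and by -0.48 to 1.99 (median 1.01, 7 of 9 higher), a difference of 1.35 ± 0.29 (adjusted p = 0.00126). In CPM, FCN1 was at 53.5 to 252 (median 86.1) in 12 samples of 9.8 Gy animals and at 121.5 to 1089 (median 387) in 12 samples of 10.7 Gy animals on that day. The nonclassical pair did not follow: the difference was -0.15 for TCF7L2 (95% interval -0.75 to 0.46, adjusted p = 0.753) and 0.34 for CDKN1C (-0.43 to 1.10). TCF7L2 was higher than control at both doses (0.95 ± 0.20 at 9.8 Gy and 0.80 ± 0.24 at 10.7 Gy, adjusted p = 0.00699 and 0.00901). CSF1R (0.70, 0.17 to 1.23, adjusted p = 0.0535) and CD36 (0.11, -0.67 to 0.88) did not pass, although CSF1R did when B1001, B1002, B1506 or B2003 was left out (0.76 to 0.87). With Day 60 samples limited to library number 0 and controls of any library number, 17 animals remained. In them the differences were 1.76 for CD14, 1.64 for FCN1, 1.42 for VCAN, 1.01 for LYZ and 0.82 for CSF1R, and all 5 were called. Library number was thus not held fixed against control in this fit.

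Neutrophil markers differed between the doses on the same day. Of 10 tested, 8 were higher at 10.7 Gy and 0 lower (median log2 2.16), led by MMP8 (4.64), MMP9 (2.82) and PADI4 (2.60), and their summed level was 283 to 2281 CPM (median 765) at 9.8 Gy and 846 to 8532 CPM (median 2318) at 10.7 Gy. Of 17 other classical monocyte genes 16 were higher (median 1.64), with S100A8 (3.60), S100A9 (3.58) and S100A12 (3.43) the largest. Of 16 nonclassical genes 1 was higher and 2 were lower. Of 8 glucocorticoid response genes 5 were higher, led by DUSP1 (2.20), ZBTB16 (1.35) and PER1 (1.32), and B cell markers were lower in 4 of 6. The part of these in the members' differences was not tested.

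**Figure D4:**
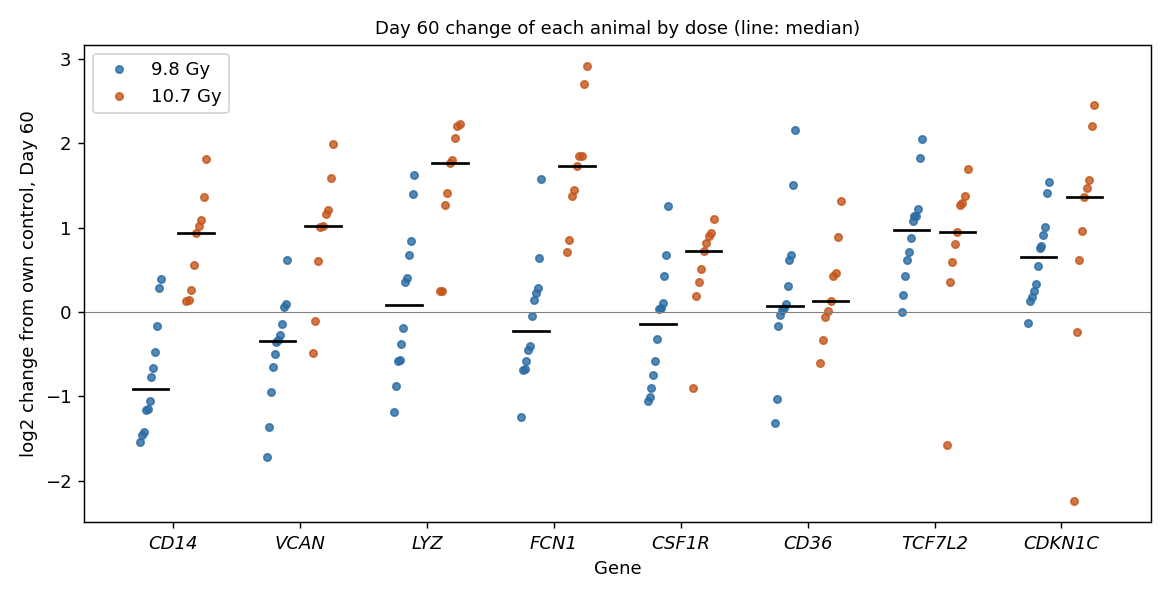
Log2 change from the own control on Day 60 (vertical axis) for each member, with 1 point per animal, 12 given 9.8 Gy and 9 given 10.7 Gy, and a bar at the median. All 9 animals given 10.7 Gy lay above 0 for CD14, LYZ and FCN1, whereas TCF7L2 had medians of 0.97 and 0.94 at the lower and the higher dose.

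Between the sexes, 0 of 8 members and 0 genes differed in their change with edgeR in the early, medium and late windows (0 members in each window, and 69 to 436 genes, at an unadjusted p under 0.05), and DESeq2 called 0 genes in each. The intervals were wide in the late window, where VCAN had a difference of -0.18 on the log2 scale (95% interval -1.39 to 1.03, females minus males).

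Within animals CD14, VCAN and FCN1 went together, and so did TCF7L2 and CDKN1C, as in the windows, which rest on the same samples. LYZ and CD36 did not follow this split clearly. Log2 CPM, centred on each animal, was correlated over all 304 samples, and over the 150 samples of library number 0 in turn, as a description of samples that share depth and animals. CD14 and VCAN had a Pearson r of 0.74 (0.73 in library number 0), VCAN and FCN1 0.69 (0.73), CD14 and FCN1 0.63 (0.73) and TCF7L2 and CDKN1C 0.73 (0.71). Between the groups r was 0.00 for CD14 and TCF7L2 (-0.14) and -0.10 for VCAN and CDKN1C (-0.22). CSF1R went with both, at 0.60 with CD14 and 0.49 with TCF7L2. LYZ was nearest to FCN1 (0.50) and CD36 to LYZ (0.41). LYZ had an r of 0.14 with CD14, 0.2 with VCAN, -0.11 with TCF7L2 and -0.13 with CDKN1C. CD36 had -0.03 with CD14, -0.05 with VCAN, 0.23 with TCF7L2 and 0.29 with CDKN1C. With the mean of the neutrophil markers, r was 0.85 for VCAN, 0.69 for CD14, 0.68 for FCN1, 0.22 for LYZ and -0.15 for TCF7L2. With the mean of the other nonclassical genes it was 0.76 for CSF1R, 0.64 for TCF7L2 and 0.59 for CDKN1C.

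The genes outside the list whose pattern was most like each member were found in the same way, over 304 samples. They were S100A11 (r 0.91), SEMA4A and SELPLG (0.90 each) for CD14, and WDFY3 (0.94), NAIP and PTPRE (0.92 each) for VCAN. CTSZ, SLC37A2 and CD300LF (0.89 each) were nearest to FCN1, LAMP1 (0.87), TNFAIP2 (0.86) and TGFBI (0.82) to CSF1R, and LOC697689 (0.84), SERPINB10 (0.82) and TFEC (0.81) to LYZ. TCF7L2 was most like CD300H (0.85), SASH1 (0.79) and HTR7 (0.75), and CDKN1C most like MTSS2 (0.78), MS4A7 (0.73) and CD300H (0.69), so CD300H stood near both. For CD36 the highest r was 0.47 (LOC716530 and DBF4), followed by UBE2V2 (0.46).

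Animals differed from each other in these genes to unequal degrees. Of the variance of log2 CPM over the 296 scheduled samples, the animal took 56.5% for CD36, 45.7% for TCF7L2 and 45.4% for CDKN1C, and 18.7% to 29.1% for the other 5 members. The day, after the animal, took 39.6% for FCN1, 32.2% for CSF1R, 32% for VCAN and 30.6% for CD14, against 22.5% for TCF7L2, 21.0% for LYZ, 19.1% for CDKN1C and 12% for CD36. Between 31.5% (CD36) and 49.9% (LYZ) was left to neither.

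**Figure D5:**
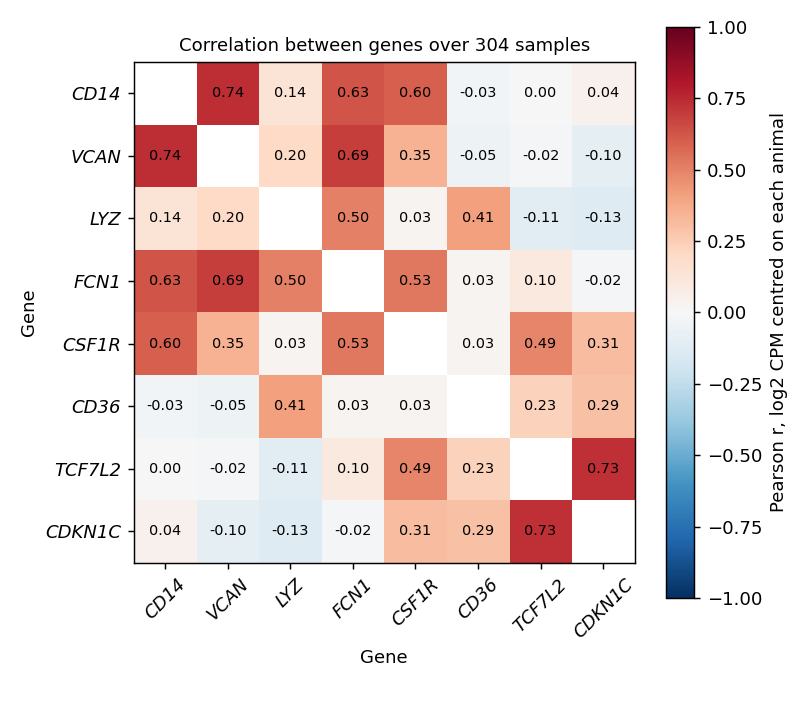
Pearson r between members (both axes) of log2 CPM centred on each animal over 304 samples, from blue (-1) to red (1). CD14, VCAN and FCN1 had r between 0.63 and 0.74 with each other, TCF7L2 and CDKN1C 0.73, and r between these groups lay between -0.10 and 0.10.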

How the data were processed

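Whole blood RNA was sequenced by the authors from 304 samples of 28 rhesus macaques. Per the labels and the study's methods, the authors trimmed reads with cutadapt 2.10, aligned with STAR 2.7.6a to Mmul_10 and counted with Subread 2.0.1 on the RefSeq annotation. The deposited counts are whole numbers for 21070 genes. The authors also deposited log2 normalized values of 16730 genes, which were used only as an alternative, with limma 3.58.1. The study's methods name upper quartile scaling and also describe conditional quantile normalization, which adjusts for GC content. The number of columns that could not be tied to a sample was 0.

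Genes reaching 3 counts in 80% of samples (13751) entered edgeR 4.0.16 (R 4.3.3), where quasi-likelihood tests with upper quartile scaling, an animal block and Benjamini-Hochberg adjustment were run. Replicates are separate animals, and the counts of an animal were summed within a window. The animal identifiers in the labels pair the samples: the deviations of samples of 1 animal had a median correlation of 0.40 (1576 pairs) against -0.02 between animals (42084 pairs), and 28 of 28 animals lay above 0.1. Log2 CPM used a prior count of 2. Each standard error is the size of the log2 change divided by the root of F, and 95% intervals follow from it. Counting error is covered by the test, and low counts limit CD36 most. Data were also simulated with 200 genes changed 3-fold and all others unchanged. Of these, 200 of 200 were found in the early comparison of 24 animals, with 1 other call. With the 6 animals of Day 270, 148 of 200 were found, with 4 other calls. The real Day 270 samples differed from this setting. In them edgeR gave 4060 genes an unadjusted p under 0.05 and called 1. The simulated share is therefore not the power reached on that day.

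The members and gene lists were chosen with earlier results of these data known. Besides the members, the text names up to 3 genes per list with the largest change past the threshold, the gene that was lower where a list of regulators otherwise rose (IRF8, chosen after its values were seen), and the 3 genes most like each member. DESeq2 1.42.0, other scalings, filters, samples and designs were tried as alternatives. The 8 unscheduled final draws were left out of the windows. Figures were drawn with Matplotlib 3.10.9 in Python 3.11.15, from tables handled with pandas 2.3.3, NumPy 2.4.6 and the R package data.table (version 1.17.8). Some sequences and 1 listed gene are not reported here.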

Additional observations from a re-analysis of the deposited data

Results flagged for a closer look

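In groups of 4 to 10 samples of 1 dose and day, 48 groups of member values were examined for a single sample far from the others, and 3 stood apart. Such a test marks about 1 in 20 groups by chance. CD14 was at 594 CPM in B1506 on Day 150 after 9.8 Gy, where the other animals were at 139 to 337 CPM. VCAN was at 1976 CPM in B1503 on Day 240 after 9.8 Gy, against 334 to 711 CPM in the others, and CD36 was at 15.9 CPM in the same sample, against 2.49 to 6.1 CPM.

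The change from control differed between the doses for 6 member values. Over Day 30 to 60 the difference was 0.80 on the log2 scale for CD14 and 0.84 for FCN1, larger at 10.7 Gy. On Day 60 alone, a day chosen after its values had been seen, it was 1.58 for CD14, 1.82 for FCN1, 1.36 for LYZ and 1.35 for VCAN.

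The 8 final draws taken outside the schedule entered none of the main comparisons. Of these, FCN1 exceeded the highest of the 24 control samples (208 CPM) in 8 of 8, LYZ in 3, CSF1R in 2, and VCAN, CD36, TCF7L2 and CDKN1C in 1 each. The share of all genes that did so was not counted, so these numbers describe the samples only.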

How the results depend on the processing

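Of the single-gene values of windows, doses, sexes and controls under alternatives, 773 kept direction and side of the threshold, 23 gained and 25 lost a call and 27 changed sign. No value that changed sign had passed the test. Over the scheduled days, 54 member-days were higher and 3 lower. Without the animal block these were 44 and 1 (VCAN on Day 21), and with the library number range as a term in 1 fit 60 and 1 (CD36 on Day 210), where Day 240 had 5 and Day 270 4 members called in place of 2 and 0. DESeq2 gave 60 higher. Of 896 member-day values under alternatives 28 gained and 35 lost a call and 17 changed sign, 6 of them with the range term (CD14 0.36 on Day 60 and 0.27 on Day 90), and 0 of the 17 were called in either fit. Lower members, late against medium, were 2, 1 without the block and 0 with TMM, also within library number 0 (0). There higher members of medium against early went from 2 to 1 with TMM. Medium higher members were 3 in place of 5 from the deposited log2 values. Members differing by dose over Day 30 to 60 were 4 with DESeq2 and 1 in irradiated samples alone. Leaving out 1 animal, members called ranged from 3 to 6 on Day 180, 3 to 7 on Day 210, 0 to 3 on Day 240 and 0 to 2 on Day 270. Fewer animals made these days fragile by construction, and the other causes were not tested.

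Changes of sign outside the scheduled days were as follows. From the deposited log2 values, CD14 gave -0.04 early and -0.02 medium and VCAN -0.09 early. Without the block VCAN gave -0.15 early and TCF7L2 -0.02 for medium against early. Within 1 library number range CSF1R medium gave -0.09 and TCF7L2 medium lost its call (0.66). With TMM, CD36 gave 0.0 for late against medium and 0.03 within library number 0, and TCF7L2 0.01 for medium against early there. For dose, TCF7L2 gave 0.26 over Day 30 to 60 and 0.30 on Day 60 in irradiated samples alone, and 0.08 on Day 60 in animals whose control had a library number in the low range. CD36 gave -0.11 on Day 60 with the Day 60 samples limited to library number 0 and controls of any library number. Leaving out 1 animal, CDKN1C ranged from -0.13 to 0.10 over Day 30 to 60, and on Day 60 CD36 from -0.07 to 0.29 and TCF7L2 from -0.27 to 0.11.

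In the late window, CDKN1C lost its call without the block (0.69, adjusted p = 0.0526) and from the deposited log2 values (0.50), CD14 (0.58) and TCF7L2 (0.51) with final draws included, and CD36 gained one with TMM (0.59), RLE (0.63) and DESeq2 (0.63). The median of all genes lay at -0.15 there with the upper quartile, -0.05 with TMM and -0.01 with RLE.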

Other observations

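The 8 unscheduled final draws came from 4 animals given 9.8 Gy, on Day 102, 127, 160 and 172, and 4 given 10.7 Gy, on Day 71, 77, 94 and 129. FCN1 ranged from 223.01 to 536 CPM in them (median 347) and was above the own control in 7 of the 7 animals that had one. VCAN ranged from 1249 to 3342 CPM (median 2251), LYZ from 256 to 621 CPM (median 364), CD14 from 264 to 552 CPM (median 386) and CSF1R from 122.3 to 531 CPM (median 203). In these samples CD14 did not exceed the highest control sample (595 CPM) in any. TCF7L2 was at 9.22 CPM in B1001 and at 55.6 CPM in B2501, the lowest and the highest of the 8, and CDKN1C was at 5.87 CPM in B1506 and at 63.2 CPM in B2004. Numbers of animals, library numbers and time differed between these draws and the controls, and no test was made.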
